A study of Mus musculus with 9 samples.

Results

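The H3K27ac mark was described at 8 genes of the Notch pathway in naive CD8+ T cells: Notch1, Notch2, Notch3, Rbpj, Maml2, Dtx1, Nrarp and Hes1. They were taken by name, as 8 of the 22380 protein-coding genes that the mm9 annotation places on the mouse genome. All 8 had H3K27ac islands in both genotypes, as did 16487 protein-coding genes. An island is a stretch of the genome called as enriched in reads from the chromatin immunoprecipitation, and its count is the number of reads inside it. For each gene, islands were collected from the gene body to 50 kb upstream of the transcription start site (TSS), each taken whole if it touched that window. Both WT and dKO cells came from young adult mice of both sexes with the hCD2-Cre transgene and the Rosa26 GFP reporter. WT mice were Tcf7+/+ and Lef1+/+, and dKO mice were Tcf7 fl/fl as well as Lef1 fl/fl. The Cre is driven by human CD2 elements and acts mainly in mature T cells, and the reporter marks cells in which it was active. GFP+ TCRbeta+ CD62Lhi CD44lo-med CD8+ cells were sorted from the spleen, so that cells in which Cre had not acted were left out. The series comprised 9 samples, of which 4 were WT and 3 dKO H3K27ac samples and each genotype had 1 input. The replicates of a genotype had been pooled before islands were called, so each value below is a single value per genotype, with no biological error, and no difference between genotypes was tested.

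Notch receptors are membrane proteins that ligands on a neighbouring cell activate. Proteases then cut the receptor and release its intracellular domain, which enters the nucleus, binds the DNA-binding protein Rbpj and recruits Mastermind-like co-activators and histone acetyltransferases to target genes such as Hes1, Dtx1 and Nrarp. Notch signalling is best known in this lineage for directing progenitors to the T cell fate in the thymus, while in mature CD8+ T cells it takes part in the response to antigen. Acetylation of lysine 27 on histone H3 marks active promoters and enhancers.

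The WT list held 65563 islands with 82668007 counts over 392.72 Mb, and the dKO list 82213 islands with 57665047 counts over 429.32 Mb. Counts were therefore divided by the total of their list and are given as counts per 1e6 island counts (CPM), and dKO to WT ratios are given as log2 values with 95% intervals that cover counting error only. All 7 marker genes of naive CD8+ T cells had an island within 1 kb of a TSS in both lists, with a summed level of 1849 CPM in WT and 1131 CPM in dKO, sums in which an island shared by Cd8a and Cd8b1 in WT and one shared by Cd3e and Cd3d in dKO count for both genes. Among markers of other cells, 3 of 4 B cell genes had such an island in WT and 4 of 4 in dKO (199 and 219 CPM), with Pax5 in dKO only. The CD4 T cell genes had it in 2 of 2 cases (59.0 and 76.6 CPM), the natural killer genes in 1 of 2 (49.9 and 64.3 CPM) and the myeloid and dendritic cell genes in 4 of 5 (109 and 93.5 CPM), with none at Ncr1 and Siglech. At the TSSs of the targeted genes Tcf7 and Lef1 an island was present in both lists, with log2 ratios of -0.94 and -1.74, which does not check the deletion, since the mark at a start site does not read the floxed exons. Among the naive CD8+ T cell markers, log2 ratios at the TSS ran from -1.43 at Cd8a to 1.39 at Cd3e. The part of other cells in the values below was not tested. A change in the mark per cell and a change in the share of cells that carry it cannot be told apart in such pools.

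**Figure D1:**
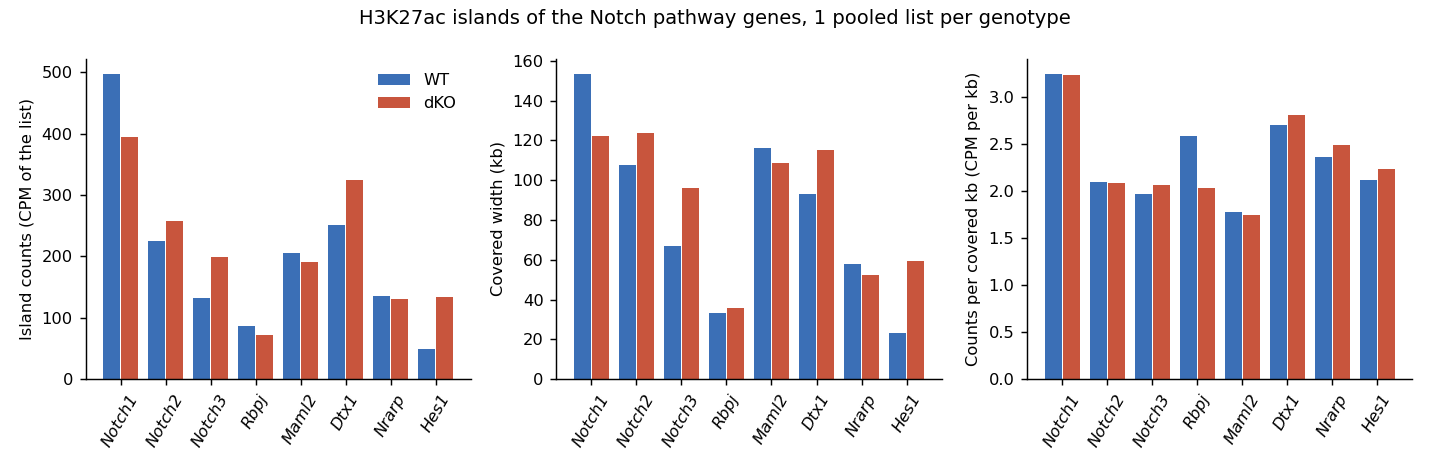
Island counts (CPM of each list), covered width (kb) and counts per covered kb (CPM per kb) of the 8 genes, from the gene body to 50 kb upstream, in the pooled WT (blue) and dKO (red) lists. Each bar is 1 value without replicate error. Counts and widths of Hes1 are larger in dKO (133 against 48.7 CPM, and 59.6 against 23.0 kb), while counts per kb are close in both lists for every gene but Rbpj.

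Notch1, the receptor best known for its part in T cell development, had the highest counts per kb of the 8 genes in both lists. Its gene lies on the minus strand of chromosome 2, from 26313423 to 26372183 (all positions are mm9, counted from 1). The WT list gave 41105 counts in 3 islands over 153.4 kb, or 497 CPM, and the dKO list 22783 counts in 2 islands over 122.4 kb, or 395 CPM. The log2 ratio was -0.33 (95% interval -0.36 to -0.31), below 0 but short of the 1.5-fold used here to call a difference, which is 0.58 on the log2 scale. The order at Notch1 turned on where islands began and ended. A WT island of 91.6 kb with 22391 counts reached 49.4 kb beyond the window and was counted whole, whereas in dKO the signal was split at another point and an outer island lay wholly outside and was not counted. When overlapping islands of the lists (1 bp or more in common) were joined and each merged region was counted whole, the log2 ratio was -0.04 (-0.06 to -0.02). The region over the Notch1 TSSs, which also covers Egfl7, Agpat2 and Gm20532, had 35983 WT counts over 134.2 kb and 24706 dKO counts over 137.8 kb, and its log2 ratio was -0.02 (-0.05 to 0.00). Its counts thus differed by less than counting error. With only islands at least 50% inside the window, the WT island over the TSS (13592 counts, 42.6 kb) and the dKO island over it (20019 counts, 107.4 kb) remained and gave a log2 ratio of 1.08, and within the gene body alone it was 0.80. Both the sign and the call at Notch1 depended on the window.

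Notch2, another receptor of the family, had its signal split over many islands. Over the window of the gene, on chromosome 3 from 97817461 to 97954290 on the plus strand, there were 18559 counts in 16 WT islands (107.4 kb, 224.5 CPM) and 14882 in 21 dKO islands (123.8 kb, 258 CPM). The log2 ratio was 0.20 (0.17 to 0.23). At the promoter the difference was smaller than counting error, with 3206 counts over 10.8 kb in WT and 2195 over 11 kb in dKO, which put the log2 ratio at -0.03 (-0.11 to 0.05). The largest ratio, 0.74, was that of a region between 97782201 and 97787800, upstream of the TSS (677 WT and 791 dKO counts). The islands found in dKO alone lay far inside the gene. From 90.5 to 130.3 kb past the TSS there were 5 dKO islands with 996 counts in all and no WT island, whereas 1 region was found in WT alone, with 199 counts. No other protein-coding gene shared an island with Notch2.

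Notch3, another receptor, lies on the minus strand of chromosome 17 from 32257765 to 32303825. Its window held 10869 WT counts in 7 islands over 67.0 kb (131 CPM) and 11438 dKO counts in 6 islands over 96.0 kb (198 CPM). The log2 ratio of 0.59 (0.56 to 0.63) lay just inside the 1.5-fold limit, and its interval spans that limit. By whole merged regions the ratio was 0.42 (0.38 to 0.45) and not called. The difference was one of width. The WT island over the TSS spanned 14 kb with 2725 counts, while the dKO island over the same TSS spanned 63.0 kb with 7098 counts and ran through most of the gene, where WT had separate islands. Counts per kb in that pair of islands, which cover unlike stretches, had a log2 ratio of -0.27. Over the whole merged region that holds them, the log2 ratio per kb was 0.05, with 10267 WT counts over 62.8 kb and 9350 dKO counts over 79 kb. An upstream region at the edge of the window was found in dKO only, with 213 counts. Ephx3 shared islands with Notch3. With islands that touch other protein-coding genes left out, the dKO island over the TSS was itself dropped while the WT island over it stayed, and the log2 ratio turned to -1.54. The promoter of Notch3 is shown because the islands over it differed most in relative width, as RefSeq gives it for GRCm38.p6 and as found by a single exact match on the minus strand at chr17:32303786-32304085 of mm9. Capitals, as in the promoters printed further on, would mark matches to the core of the RBPJ motif (TGGGAA) or of the Tcf/Lef motif (CTTTGA) on either strand, and there is none here.
Notch3 promoter: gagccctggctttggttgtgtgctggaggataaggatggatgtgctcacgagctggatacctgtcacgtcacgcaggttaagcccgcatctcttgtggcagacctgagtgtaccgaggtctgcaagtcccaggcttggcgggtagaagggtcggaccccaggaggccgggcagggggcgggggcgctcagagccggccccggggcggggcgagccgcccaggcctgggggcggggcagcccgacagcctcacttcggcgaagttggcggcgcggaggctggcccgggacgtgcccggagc

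**Figure D2:**
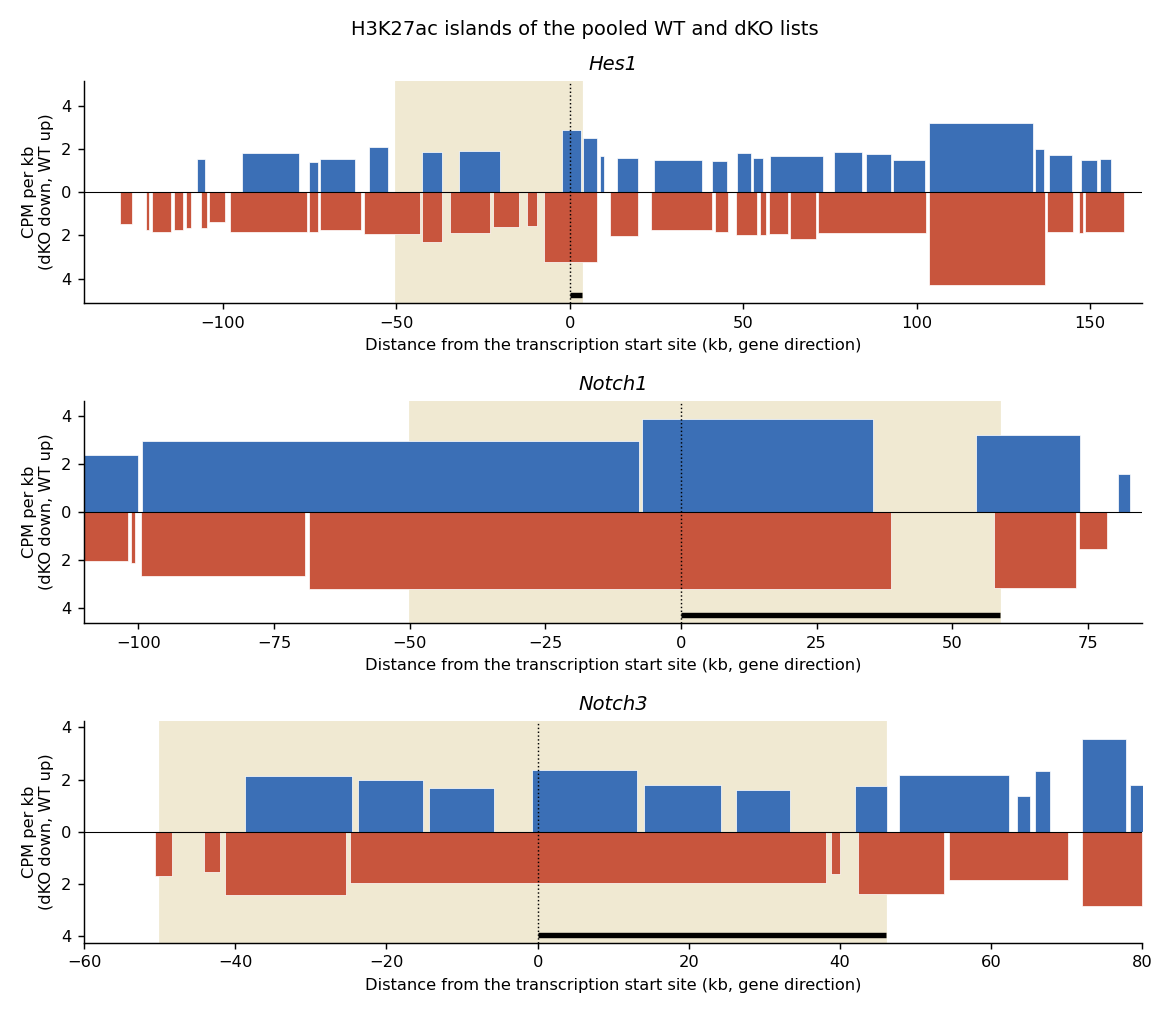
Islands around Hes1, Notch1 and Notch3, against the distance from the TSS in kb, in the direction of the gene. The height of a block is its counts per kb (CPM per kb), WT upward in blue and dKO downward in red, the shaded band is the window from the gene body to 50 kb upstream and the black bar the gene. At Notch1 the outer WT island reaches 49.4 kb past the band and the dKO island 18.6 kb, at Notch3 a dKO island of 63.0 kb lies opposite several WT islands, and at Hes1 dKO islands fill most of the band.

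Rbpj, the DNA-binding protein through which all Notch receptors act, was the gene whose signal per kb differed most. Its gene lies on the plus strand of chromosome 5, from 53947018 to 54048684. Over the window, 7095 WT counts in 10 islands (33.2 kb, 85.8 CPM) stood against 4177 dKO counts in 10 islands (35.6 kb, 72.4 CPM), a log2 ratio of -0.24 (-0.30 to -0.19). The widths were similar, and the counts per kb were 2.59 CPM per kb in WT and 2.03 in dKO, which gave a log2 ratio of -0.35. Only 72.9% of the bases that WT islands covered were also covered in dKO, the lowest share of the 8 genes. The region over the promoter that RefSeq annotates, from 53978401 to 53983200, lies 31.4 to 36.2 kb inside the GENCODE gene. It had 2886 WT counts over 3.6 kb and 1339 dKO counts over 4.8 kb, which gave a log2 count ratio of -0.59 (-0.68 to -0.49) and a log2 ratio per kb of -1.0. The largest count ratio at Rbpj, 0.63, was that of an intronic region 48.0 to 54.4 kb past the first start site, with 550 WT and 594 dKO counts and a ratio per kb of -0.05. Other islands differed by presence. A WT island from 53944401 to 53947000, ending just upstream of the first GENCODE start site, held 310 counts, and an intronic one from 53960401 to 53962800 held 270, and neither had a dKO counterpart. In dKO alone, 4 intronic islands between 45.4 and 79.4 kb past that start site held 507 counts in all.

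Maml2, a co-activator of the Mastermind-like family, was close to even between genotypes. It lies on the plus strand of chromosome 9 from 13424434 to 13513832. WT had 16977 counts in 15 islands over 116.0 kb (205 CPM) and dKO 10966 counts in 26 islands over 108.8 kb (190 CPM), a log2 ratio of -0.11 (-0.15 to -0.08). The dKO signal was thus cut into more and shorter islands with nearly the same counts per kb (1.77 and 1.75 CPM per kb). At the start of the long transcript, 360 WT and 247 dKO counts gave a log2 ratio of -0.02. The start of a shorter transcript, 40.4 to 42.8 kb further in, carried a WT island of 2.4 kb with 365 counts, from 13464801 to 13467200, and no dKO island. The intronic region with the largest difference, 34.0 to 37.0 kb past the TSS, had 326 WT and 120 dKO counts and a log2 ratio of -0.92, with counts per kb at 0.18. A region 74.6 to 80.2 kb past the TSS differed the other way, with 321 WT and 390 dKO counts, a log2 ratio of 0.80 and counts per kb at -0.04. An intronic region 54.2 to 58.2 kb past the TSS was found in dKO only, with 325 counts.

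The promoters of Rbpj and of the short Maml2 transcript are printed because they were the start sites of these genes at which the dKO list had less signal, or none. Each came from the RefSeq table (GRCm38.p6) and had a single exact match in mm9, at chr5:53981335-53981634 and chr9:13466654-13466953, both on the plus strand. Capitals mark the RBPJ core. In the Rbpj promoter it was found once on each strand, and in the Maml2 promoter once, on the minus strand.
Rbpj promoter: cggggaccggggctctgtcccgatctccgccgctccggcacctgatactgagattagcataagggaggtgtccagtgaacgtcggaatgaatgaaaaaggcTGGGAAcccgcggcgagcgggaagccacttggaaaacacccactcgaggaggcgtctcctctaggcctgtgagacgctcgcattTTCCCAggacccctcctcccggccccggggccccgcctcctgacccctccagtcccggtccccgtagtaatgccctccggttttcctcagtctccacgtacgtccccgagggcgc
Maml2 short transcript promoter: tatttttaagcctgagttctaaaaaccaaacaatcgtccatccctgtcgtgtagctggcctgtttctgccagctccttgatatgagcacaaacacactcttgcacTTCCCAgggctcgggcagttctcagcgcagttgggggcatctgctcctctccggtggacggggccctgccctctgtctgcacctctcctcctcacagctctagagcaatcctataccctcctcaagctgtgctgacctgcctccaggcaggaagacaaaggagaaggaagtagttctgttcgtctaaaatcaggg

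RefSeq promoters were given for 7 of the 8 genes, in 9 windows of 300 bases. The RBPJ core was found in windows of Rbpj and Maml2 and the Tcf/Lef core in none, while 25.6% and 16.0% of all 32851 RefSeq promoters hold them. The Maml2 window had 7 CpG dinucleotides and that of Rbpj 26. Over the merged regions of each gene, the RBPJ core occurred 0.897 to 1.40 times per kb and the Tcf/Lef core 0.596 to 0.964 times per kb, beside 1.06 and 0.755 over all 76633 merged regions. A match of these letters is not a binding site.

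**Figure D3:**
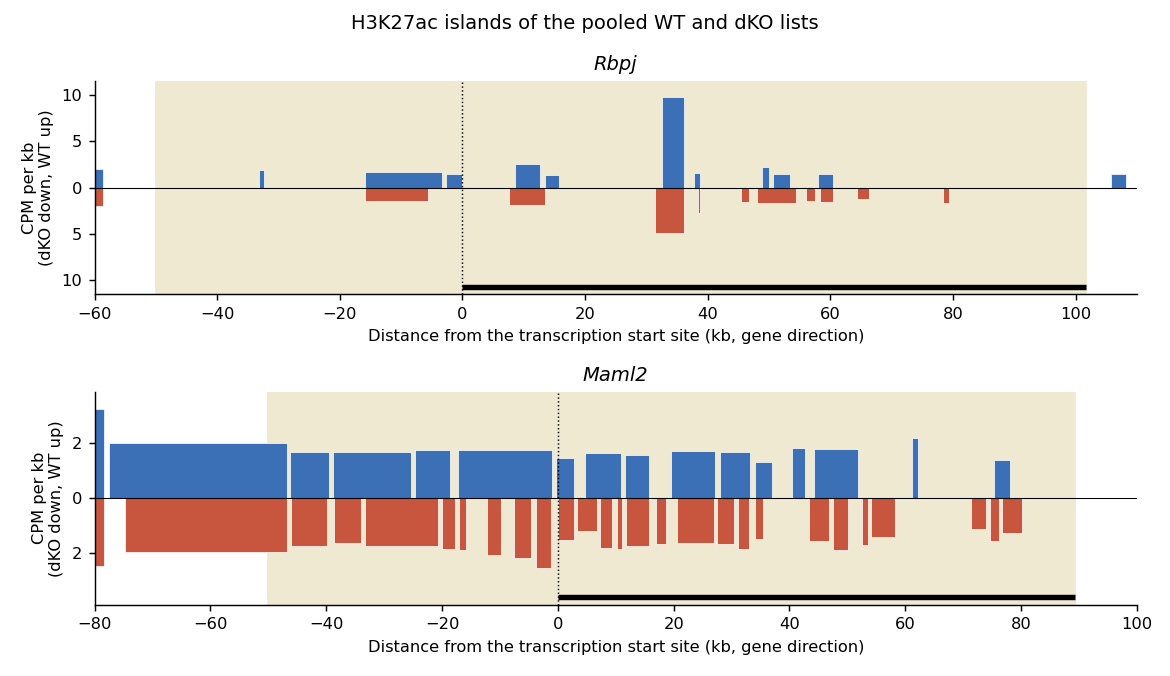
Islands around Rbpj and Maml2, against the distance from the first annotated TSS in kb, in the direction of the gene. The height of a block is its counts per kb (CPM per kb), WT upward in blue and dKO downward in red, with the window shaded and the gene as a black bar. The tall WT block of Rbpj is its RefSeq promoter, at 9.70 CPM per kb in the whole region against 4.84 in dKO, and the WT island of Maml2 at 40.4 to 42.8 kb has no dKO partner.

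Dtx1, a ubiquitin ligase gene of the Deltex family and a known Notch target, had a larger share of the list's counts in dKO. The gene lies on the minus strand of chromosome 5, from 121130211 to 121161936. There were 20810 WT counts in 3 islands over 93.2 kb (252 CPM) and 18683 dKO counts in 2 islands over 115.4 kb (324 CPM), a log2 ratio of 0.36 (0.34 to 0.39). One dKO island of 111.8 kb held 98.3% of the dKO counts and spanned nearly all of the merged region, together with the neighbours Rasal1, Oas2 and Oas3. Its counts per kb were close to those of WT, with a log2 ratio of 0.08. Within the gene body alone the ratio was 0.64 and past 1.5-fold, with a WT island of 16901 counts and the dKO island of 18363 in the sum. A short region at the far upstream edge, 121210001 to 121213600, had 65 WT counts over 0.2 kb and 320 dKO counts over 3.6 kb, so its count ratio (2.82) and its ratio per kb (-1.35) had opposite signs.

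Nrarp, a small ankyrin-repeat protein that Notch induces and that dampens Notch signalling, was close to even. It lies on chromosome 2 from 25036278 to 25038850 on the plus strand. WT had 11260 counts in 6 islands over 57.8 kb (136 CPM) and dKO 7495 in 4 islands over 52.2 kb (130 CPM), a log2 ratio of -0.07 (-0.11 to -0.03). By whole merged regions the sign was the other one, at 0.14 (0.11 to 0.18). The region over its TSS, shared with Cobra1 and A830007P12Rik, had 10906 WT and 8169 dKO counts and a log2 ratio of 0.10, with counts per kb at -0.00. An upstream region from 24990001 to 25008600 had the largest ratio, 0.38, with 1786 WT and 1622 dKO counts.

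Hes1, a transcriptional repressor and the best-known target of Notch, had the largest ratio of the 8 genes. It lies on the plus strand of chromosome 16 from 30064470 to 30067882. WT had 4022 counts in 3 islands over 23.0 kb (48.7 CPM) and dKO 7677 counts in 6 islands over 59.6 kb (133 CPM). The log2 ratio was 1.45 (1.40 to 1.51), or 2.74-fold, and lay at the 98.0th percentile of all genes. Part of that size came from islands at the edges of the window. A dKO island of 16.2 kb, 9.47 kb of it outside, counted whole while its WT counterpart lay beyond the window and did not, and a WT island of the TSS region began past the end of the gene and did not count either. By whole merged regions the log2 ratio was 0.91 (0.86 to 0.96), or 1.88-fold, and Hes1 alone of the 8 genes stayed past 1.5-fold. Each of the 4 regions present in both lists had a ratio above 0, from 0.32 to 1.40. The region over the TSS, 30057001 to 30072400, held 2145 WT counts in 2 islands over 9.6 kb and 2884 dKO counts in 1 island over 15.4 kb, with log2 ratios of 0.95 for counts and 0.26 per kb. A region 9.47 to 12.5 kb upstream was found in dKO only, with 272 counts. No other protein-coding gene shared an island with Hes1, and the cover of its window by islands was 43.1% in WT and 85.4% in dKO.

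Set side by side, 2 of the 8 genes, Hes1 and Notch3, were at least 1.5-fold higher in dKO by island counts and 0 were lower, while 11.5% of the 16487 genes were higher and 11.5% lower. The median log2 ratio was 0.07 over the 8 genes and -0.03 over all genes, with 4 genes above and 4 below 0. Counting whole merged regions, 1 gene was higher and 0 lower, beside 7.05% and 9.27% of 16518 genes, with a median of 0.17 against -0.02. By counts per kb 0 of 8 were past 1.5-fold either way, beside 0.425% of genes higher and 9.28% lower. Here the ratios of the 8 genes ran from -0.35 at Rbpj to 0.08 at Nrarp, and 7 of them lay between -0.02 and 0.08, above the median of all genes at -0.16. Differences in counts among these genes were thus mostly differences in the summed width of the islands counted. The log2 ratios of this width ran from -0.33 at Notch1 to 1.37 at Hes1, and both ends depended on which islands touched the window. By whole merged regions the widths at Notch1 were 153.4 kb in WT and 158 kb in dKO. At Hes1 they were 32.8 kb in WT and 59.6 kb in dKO. The sums over a gene hold different numbers of kb, so levels between genes are compared per kb only. In WT the order ran from Notch1 (3.24 CPM per kb) over Dtx1 (2.70), Rbpj (2.59), Nrarp (2.36), Hes1 (2.12), Notch2 (2.09) and Notch3 (1.96) to Maml2 (1.77). In dKO Notch1 (3.23) and Dtx1 (2.81) led again, Maml2 (1.75) was again lowest, and Rbpj (2.03) stood next to it. Neighbours in this order cannot be called different, since no spread between samples was available.

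**Figure D4:**
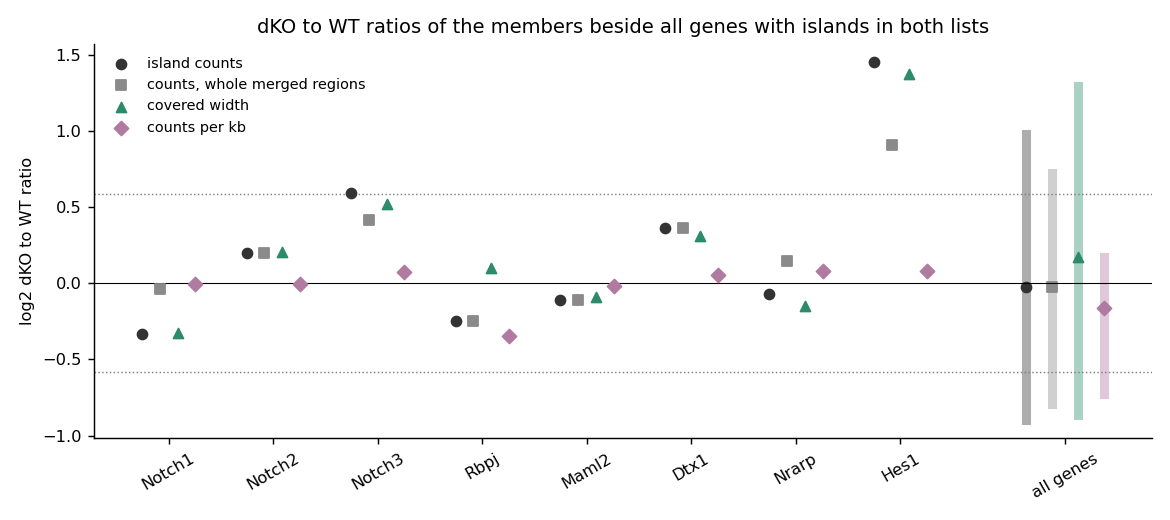
The log2 dKO to WT ratio of each gene by island counts, by counts of whole merged regions, by covered width and by counts per kb, with dotted lines at 1.5-fold. At the right, the marker is the median over all genes with islands in both lists and the bar spans the 5th to the 95th percentile. Markers for counts and for width move together, from Notch1 below 0 to Hes1 at 1.45 and 1.37, while those for counts per kb stay near 0 except at Rbpj (-0.35).

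The windows of the 8 genes held 65 merged regions, of which 42 had islands in both lists, 6 in WT only and 17 in dKO only. Of all 76633 merged regions, 45322 had islands in both lists, and the dKO list held more islands (82213) than the WT list (65563). How the rest of all regions divided between the lists is not given here. The 17 and 6 are therefore not read as a trait of these genes. Regions of 1 list alone were small, with 1454 counts in all for WT and 3059 for dKO, and Rbpj had 3 of the WT-only ones. Of the 42, 8 were at least 1.5-fold higher and 2 lower by counts, beside 11.1% and 14.6% of the 45322 regions that both lists shared. The 3 higher regions of Hes1 made it the gene with the most, and the 2 lower ones were the Rbpj promoter and the Maml2 intronic region. By counts per kb 1 was higher and 2 were lower, beside 1.17% and 4.51%. The higher one was an intronic region of Rbpj with only 128 WT and 64 dKO counts, and the lower ones were the Rbpj promoter and the edge region of Dtx1.

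The lower value per kb at the Rbpj promoter was set beside other promoters, since dense WT regions were lower in dKO in general. Over 12950 merged regions that cover a protein-coding TSS, the median log2 ratio per kb was -0.17. It was -0.02 for regions under 3 CPM per kb in WT and -0.54 for the 843 regions at 8 CPM per kb or more, the class of the Rbpj promoter. In that class 12.1% of regions were as low as Rbpj or lower, whereas over all promoter regions the share was 1.75%. The WT level enters both the class and the ratio, so the class and the ratio are not independent. The promoter regions of the other genes had 1.45 to 3.59 CPM per kb in WT and log2 ratios per kb from -0.06 at Notch1 to 0.26 at Hes1. That of Hes1 lay above 93.1% of promoter regions under 3 CPM per kb. All these regions were taken whole and differed in size. WT islands in them covered 3 kb at Maml2 and 3.6 kb at Rbpj, but 93.2 kb at Dtx1 and 134.2 kb at Notch1. A value per kb over a long region is not that of the promoter alone.

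**Figure D5:**
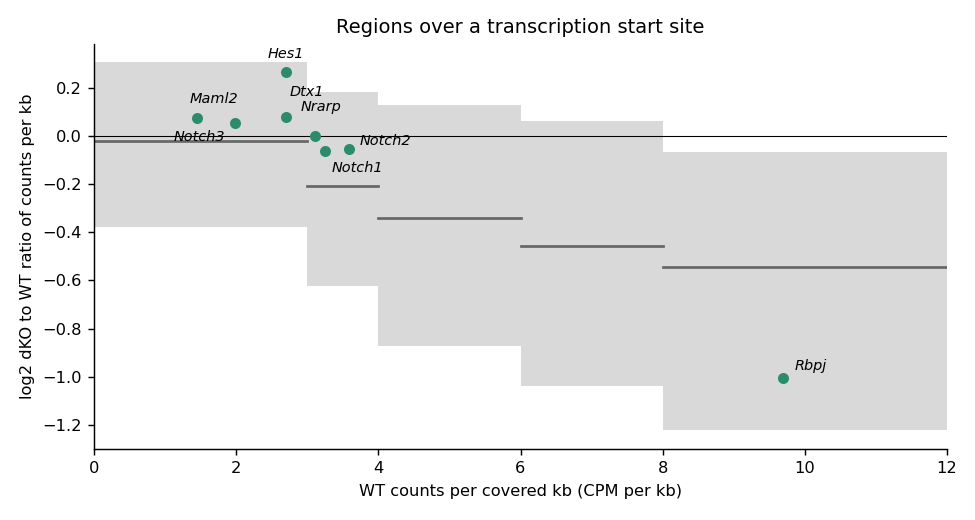
The log2 dKO to WT ratio of counts per kb of merged regions over a TSS, against their WT counts per kb (CPM per kb). The line is the median and the grey band the 5th to the 95th percentile of regions over any protein-coding TSS in 5 classes of WT level, the last of which is open to the right, and points are the regions of the 8 genes. Rbpj (9.70 CPM per kb, -1.0) lies low but inside the band of its class, and Hes1 (0.26) lies near the upper edge of its own.

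Super enhancers (SEs), long clusters of enhancers, had been listed by the study from these same libraries, so their ratios are not independent evidence of a direction. The list used holds only SEs that differed between genotypes and were linked to differentially expressed or lineage-enriched genes. Windows of 3 of the genes overlapped an SE of that list, each of them listed as stronger in dKO. Whether the other genes lie in an SE outside that list was not checked, and the share of all genes overlapping a listed SE is not given here. The SE of Hes1, on chromosome 16 from 29934801 to 30285200, held 35899 WT counts over 220.4 kb and 38127 dKO counts over 300.4 kb, and its log2 ratio was 0.61 (0.59 to 0.63) for counts and 0.16 per kb. That of Notch3, on chromosome 17 from 32097801 to 32354400, had ratios of 0.25 and 0.02, and the Dtx1 window lay in one listed for Oas3, with 0.33 and 0.06. The study also linked to Hes1 a site of higher chromatin accessibility in dKO, in its cluster of Tcf1/Lef1-repressed genes. It lies at 30177856 to 30178149, 113 kb downstream of the TSS and outside the window. The island over it had 7968 WT counts over 30 kb and 8264 dKO counts over 33.4 kb, and the log2 ratio was 0.57 (0.53 to 0.62). Its widths were similar, so here the ratio of counts per kb was also above 0, at 0.42.

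Other genes of the pathway were read from a list of 55, of which 54 were annotated and 53 had islands in both lists. By counts 1 was at least 1.5-fold higher in dKO and 5 were lower, against 11.5% of all genes in each direction, and the median log2 ratio was 0.02. Itch, which encodes a ubiquitin ligase, was the higher one at 1.20. The lower ones were the glycosyltransferase gene Rfng (-0.60) and 4 of the 9 targets measured, the repressor genes Hes5 (-0.67), Hey1 (-0.93) and Hey2 (-0.65) and the growth regulator Myc (-0.59). Targets of this list had a median of -0.47 and 2 of 9 were above 0. Among the 8 genes, the targets Hes1, Dtx1 and Nrarp stood at 1.45, 0.36 and -0.07. By whole merged regions Hes1 was at 0.91, Myc at -0.28 and Hey1 at -0.70, while Hes5 and Hey2 kept their values. Hey2 rested on 693 WT and 307 dKO counts. By whole merged regions 0 were higher and 3 were lower, all 3 of them targets, against 7.05% and 9.27% of all genes. No island lay over Jag1, a ligand, in either list. Over the other 4 ligands the ratios ran from -0.21 at Jag2 to 0.18 at Dll4, and the fourth receptor, Notch4, stood at 0.46. None of the 9 protease genes or of the 14 co-activators and co-repressors was past 1.5-fold by counts. By counts per kb 0 were higher and 5 lower, against 0.425% and 9.28% of all genes, with a median of -0.22 beside -0.16.

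Over 4 values (the log2 CPM and the log2 covered width in each list), the gene most like Hes1 was BC022687, with a log2 count ratio of 1.60 and a width ratio of 1.37. The nearest were Slc23a2 for Notch2, Cdc20b for Notch3, Asb1 for Rbpj, Fars2 for Maml2, Colq for Dtx1 and Capn8 for Nrarp, at Euclidean distances from 0.0540 (Notch2) to 0.128 (Notch3).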

How the data were processed

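H3K27ac ChIP-seq of naive CD8+ T cells was analysed from 2 deposited lists of islands, 1 per genotype. The submitters' notes name FastQC, Bowtie2 2.2.5 and SICER 1.1 with the mm9 build. Per the methods, reads were filtered on mapping quality and replicates of a genotype were pooled. Per the labels, SICER ran with a window of 200 bp, a gap of 400 bp and an FDR of 0.01. The values deposited by the authors are raw read counts per island, not scaled for depth or width. Stretches without an island have no count, counts rise with width, and each list's total is not its sequencing depth, so scaling by it also removes differences in enrichment. Reads carry no molecular identifiers, and intervals cover counting error only. Input samples were not analysed here.

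Starts were made 1-based. Genes came from GENCODE vM1 on NCBIM37, which is mm9, and 0 of 76633 regions reached beyond a chromosome's end. Island counts touching the window from the gene body to 50 kb upstream were summed per list and divided by the list total, and log2 dKO to WT ratios, widths and counts per kb were computed in Python 3.11.15 with pandas 2.3.3 and NumPy 2.4.6 for all protein-coding genes. Islands sharing at least 1 bp were merged into regions. A ratio of at least 1.5-fold was called. The summing and merging were tested on simulated data. RefSeq promoters (GRCm38.p6) were placed in mm9 by exact match, which 8 of 9 had. The members and lists were chosen with earlier results of these data known. Genes named were the 8 members, pathway genes past 1.5-fold or without islands, and the most similar genes by 4 values, of which that for Notch1 is not reported here. Regions named were those over a TSS, that with the largest count ratio among those with at least 200 counts in the lists together, and those of 1 list with at least 200 counts. Jag2, Dll4, Notch4, other genes outside this rule, an intronic Rbpj region of 128 WT counts and a Maml2 region with a log2 ratio of 0.80 are named as neighbours, calls or ends of a range, chosen after their values were seen. Alternatives were other windows, scalings and counting rules.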

Additional observations from a re-analysis of the deposited data

How the results depend on the processing

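Hes1 was at least 1.5-fold higher in dKO under all 11 other ways of counting tried, apart from counts per kb, with log2 ratios from 0.91 to 1.82. These are not 11 separate checks. Its value stayed at 1.45 with islands of at least 3 CPM, with islands of other genes left out and with 10 counts added. The scalings by shared regions move all genes by the same amount (Hes1 to 1.52). Notch3 ranged from -1.54, with islands touching another protein-coding gene left out, to 1.12 in the gene body, and Notch1 from -0.33 to 1.08. Rbpj stayed below 0 (-0.36 to -0.06) and Notch2 and Dtx1 above 0 (0.15 to 0.27, and 0.35 to 0.64), without being called except for Dtx1 in the gene body. Maml2 (-0.22 to 0.01) and Nrarp (-0.10 to 0.31) had either sign. Members called higher, 2 in the report, numbered 0 by counts per kb, 4 in the gene body, and 1 with counts taken by the share of an island inside the window, with islands of at least 3 CPM, with islands of other genes left out, by whole merged regions (added after seeing the data) and at a fold of 2. Members called lower numbered 1 with islands of other genes left out and 1 at the smaller fold tried. The median of the 8 genes was 0.14 with either scaling by shared regions (median ratio 0.139, totals 0.137), 0.43 in the gene body, 0.20 with 10 kb and 0.26 with 100 kb upstream, 0.17 by the share inside (0.174) and by merged regions (0.173), 0.28 with 50% of an island inside, and -0.089 without islands of other genes. For the other pathway genes, 0 were higher by counts per kb (5 lower, median -0.22) and by merged regions (3 lower, median -0.051), 5 higher and 7 lower in the gene body, and 3 higher and 2 lower with the median ratio of shared regions (median 0.094). Regions called higher fell from 8 to 1 by counts per kb. Causes of these shifts beyond the islands counted were not tested. With islands of other genes left out, Notch1 and Dtx1 had no ratio, because 1 or both lists had no island left. No paired analysis was possible because the replicates of a genotype were pooled before islands were called, and leaving out replicates was not possible for the same reason. Missing replicate values limit every ratio, and the effect of depth on island borders was not tested.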
